A study of Homo sapiens with 23 samples.

Results

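The HLA class I and antigen processing genes were 9 of the 36085 genes measured in NCCITs, a human embryonal carcinoma line with pluripotent features. They were chosen by name: the heavy chain genes HLA-B, HLA-C, HLA-E, HLA-F and HLA-G, the light chain gene B2M, the peptide transporter genes TAP1 and TAP2, and the regulator NLRC5. RNA-seq covered 6 libraries of SCi-NCCITs, 3 kept without doxycycline and 3 given 2 µg/mL of it for 72 hours. SCi-NCCITs carry a doxycycline-inducible dCas9-KRAB, a dead Cas9 fused to a repressor domain, inserted with piggyBac, and constitutively express sgRNAs against SVAs in both conditions. SVAs are composite retrotransposons found in hominoids. The paper states that these sgRNAs also target LTR5Hs, another transposon family, and effects at the families were not separated here. ChIP-seq peaks were given for H3K9me3, a repressive histone mark, in 1 library of parental NCCITs and 2 of SCi-NCCITs per condition, for YY1 in 2 per condition and for OCT4 in 1 per condition. The cells were selected with puromycin and geneticin, and no library came from cells given doxycycline without the sgRNAs or dCas9-KRAB, so an effect of the drug itself cannot be told apart from that of dCas9-KRAB.

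Class I molecules show peptides from inside the cell to CD8 T cells. The proteasome cuts proteins, TAP1 and TAP2 carry the peptides into the endoplasmic reticulum, and chaperones load them onto a heavy chain paired with B2M. NLRC5 activates transcription from the class I promoters and interferon raises the whole pathway. Embryonal carcinoma and embryonic stem cells are known for low surface class I.

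On GRCh37, 7 of the 9 genes lie on the short arm of chromosome 6, from HLA-F (chr6:29690552-29706305) through HLA-G (chr6:29794744-29798902), HLA-E (chr6:30457286-30461971), HLA-C (chr6:31236526-31239907) and HLA-B (chr6:31321649-31334844) to TAP2 (chr6:32789610-32806516) and TAP1 (chr6:32812986-32821593). B2M is at chr15:45003556-45011049 and NLRC5 at chr16:57023397-57117443. The chr6 HLA region was taken as the span of the 7 genes with 1 Mb on each side, chr6:28690552-33821593, which holds 187 protein-coding genes. It is 0.166% of the assembled genome and held 22 of the 635 de-repressed SVAs on assembled chromosomes (3.46%). De-repressed SVAs are the 751 that the study lists as lacking H3K9me3 in pluripotent cells. The paper reports that part of them also lacked H3K27ac, a mark of active elements. It attributes this to possible mappability problems and left that part out of its later analyses. Whether SVAs of the region belong to that part was not tested here. A further 103 of the 751 were listed on 7 alternate haplotype contigs of chromosome 6, which are other versions of the same region.

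The promoters of the class I heavy chains share short elements through which the pathway is switched on, and they are printed to show which of these elements each gene holds. The sequences are the 250 bases before the transcription start, 5′ to 3′ on the strand of the gene, from RefSeq on GRCh38.p14, where 7 of the 9 genes matched an entry and HLA-E and NLRC5 had none. Capitals mark GGGGATTC, a core of the NF-kB site, AAGTGAAA, a core of the interferon response element, TGACGC, a core of the X2 box bound by CREB and ATF proteins, and CCAAT, the Y box bound by NF-Y, each on either strand.
HLA-C, chr6:31272093-31272342, minus strand: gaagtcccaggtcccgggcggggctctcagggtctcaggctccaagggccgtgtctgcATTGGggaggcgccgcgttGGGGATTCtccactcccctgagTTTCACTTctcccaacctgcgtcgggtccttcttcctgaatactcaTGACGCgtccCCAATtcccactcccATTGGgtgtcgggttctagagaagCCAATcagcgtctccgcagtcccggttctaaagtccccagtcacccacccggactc
HLA-B, chr6:31357180-31357429, minus strand: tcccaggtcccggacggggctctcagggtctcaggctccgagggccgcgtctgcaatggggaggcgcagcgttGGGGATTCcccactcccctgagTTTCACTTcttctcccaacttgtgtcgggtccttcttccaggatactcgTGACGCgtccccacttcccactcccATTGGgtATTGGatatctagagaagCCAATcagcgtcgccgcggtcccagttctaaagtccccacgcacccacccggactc
HLA-G, chr6:29827575-29827824, plus strand: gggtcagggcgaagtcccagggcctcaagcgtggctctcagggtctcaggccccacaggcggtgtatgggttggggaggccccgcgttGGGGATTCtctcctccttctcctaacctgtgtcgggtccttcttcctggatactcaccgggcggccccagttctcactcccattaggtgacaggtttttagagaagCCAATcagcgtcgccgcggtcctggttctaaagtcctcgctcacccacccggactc
HLA-F, chr6:29723184-29723433, plus strand: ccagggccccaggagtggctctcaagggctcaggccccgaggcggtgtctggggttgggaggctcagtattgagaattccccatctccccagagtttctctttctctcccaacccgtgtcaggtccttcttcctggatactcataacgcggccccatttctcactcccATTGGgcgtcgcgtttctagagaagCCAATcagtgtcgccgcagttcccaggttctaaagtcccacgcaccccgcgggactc
B2M, chr15:44711267-44711516, plus strand: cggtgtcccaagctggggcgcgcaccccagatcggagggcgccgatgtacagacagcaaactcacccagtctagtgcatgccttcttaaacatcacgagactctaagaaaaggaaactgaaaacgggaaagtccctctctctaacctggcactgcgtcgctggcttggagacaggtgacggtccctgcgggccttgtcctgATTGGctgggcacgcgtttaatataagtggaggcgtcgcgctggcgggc

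HLA-C and HLA-B held all 4 strings of letters. HLA-G held GGGGATTC and CCAAT, and HLA-F held CCAAT alone, as did B2M and TAP1. TAP2 held TGACGC alone. In the levels given below, B2M was the most abundant of these genes, and it held the same string as HLA-F and TAP1, which were below 1 TPM. HLA-C and HLA-B, which held all 4, came next after B2M. A link between the strings and the levels was not tested. Over the 35116 RefSeq promoters, the upstream 250 bases held GGGGATTC in 0.772%, AAGTGAAA in 1.37%, TGACGC in 7.67% and CCAAT in 32.0%. The letters were picked with the class I promoters in view, and a match or its absence says only what these 250 bases read. Only exact strings were searched, so a gene without a string may hold the element in other letters. For HLA-G, with 3 entries, and TAP1, with 2, the entry used was the one most like HLA-C. The entries not used held none of the 4 strings.

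Levels between genes were compared as TPM, which accounts for transcript length and depth. B2M and HLA-C were expressed above 50 TPM in every library, HLA-B and HLA-E at a few TPM, and the other 5 genes below 1 TPM. B2M, the light chain, stood highest, at 92.6 ± 6.54 TPM without and 105 ± 10.2 TPM with doxycycline (SD, n = 3 each). HLA-C, a classical heavy chain, followed at 63.1 ± 5.04 and 66.8 ± 4.98 TPM. HLA-B, the other classical heavy chain measured here, was at 6.64 ± 1.20 and 7.41 ± 0.217 TPM. HLA-E, a ligand of the inhibitory receptor NKG2A on NK cells, was at 2.24 ± 0.204 and 2.51 ± 0.931 TPM. These 4 genes did not overlap with their neighbours in this order in any library, since the lowest B2M value was 85.3 against a highest HLA-C value of 72.2, and the lowest HLA-B value was 5.39 against a highest HLA-E value of 3.57. Below them NLRC5 (0.129 to 0.411 TPM), TAP1 (0.00935 to 0.309 TPM) and TAP2 (0 to 0.182 TPM) overlapped with each other. HLA-F, with at most 0.0423 TPM, and HLA-G, the heavy chain of the placental trophoblast, with at most 0.00839 TPM, overlapped as well. These levels count only transcripts that the annotation assigns to each gene. Unassigned transcripts that matched TAP1 in length and estimated counts held 56.5 counts over the 6 libraries, beside 42.0 on the gene. For B2M such matches held 4689.9 counts beside 9057.8 on the gene, and for HLA-E 96.3 beside 918.6. Copies on alternate contigs that differ in sequence would not be matched. Whether such copies lower the levels of the chromosome 6 genes was not tested.

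**Figure D1:**
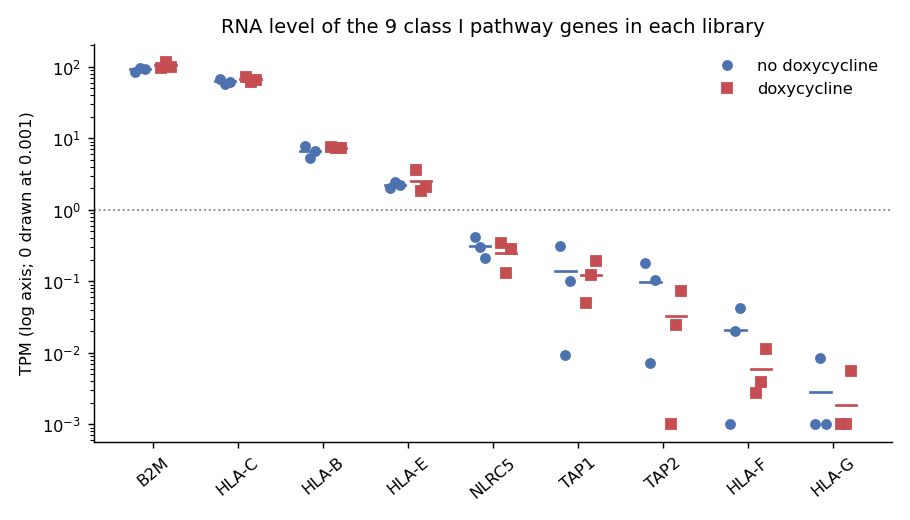
TPM of each of the 9 genes (log axis, 0 drawn at 0.001) in the 3 libraries without doxycycline (circles) and the 3 with it (squares), with the mean of each group as a line. B2M, HLA-C, HLA-B and HLA-E lie above 1 TPM in all 6 libraries and the other 5 genes below it.

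The 4 genes at the bottom of the order rested on few reads. TAP1 had 7, 1 and 7 estimated counts without doxycycline and 5, 9 and 14 with it. TAP2 had 11, 0 and 0 without and 0, 0 and 15 with doxycycline. HLA-F had at most 2 estimated counts in a library and HLA-G rounded to 0 in all 6, where 3 counts correspond to 0.0628 to 0.204 CPM, counts scaled to library size. These 4 genes did not pass the filter on low counts, so a change in them could not be detected from these counts.

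Between conditions, none of the 9 genes passed the test. Of the 5 tested, 4 had values above and 1 a value below the untreated level, with a median log2 fold change of 0.20 beside 0.00 over all genes tested. edgeR's quasi-likelihood test called 0 of 5 at an adjusted p under 0.05, where it called 17.5% of the 16371 genes tested, 8.97% higher and 8.48% lower. At an unadjusted p under 0.05 it gave 0 of 5 as well (32.5% of all genes), and DESeq2 called 0 of the 5 (18.6% of all genes). Only B2M had CPM values that did not overlap between the groups, as did 37.0% of all genes tested. In bulk RNA, fewer cells that express a gene and less RNA per cell cannot be told apart.

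HLA-C was measured at 70.6, 58.6 and 64.4 CPM without and 76.5, 68.2 and 68.0 CPM with doxycycline. The groups overlapped in 1 untreated library, and the log2 fold change was 0.14 ± 0.078 (SE, 95% interval -0.03 to 0.32, adjusted p = 0.245 by edgeR). HLA-B was measured at 7.06, 5.36 and 6.72 CPM without and 7.84, 7.76 and 7.02 CPM with doxycycline. The lowest treated library fell just under the highest untreated one, with a log2 fold change of 0.25 ± 0.119 (95% interval -0.02 to 0.52, adjusted p = 0.182 by edgeR). HLA-E was at 3.15, 3.64 and 3.50 CPM without and 6.49, 3.23 and 3.40 CPM with doxycycline. Only the first treated library was high, the log2 fold change was 0.34 ± 0.257 (95% interval -0.24 to 0.92, adjusted p = 0.399 by edgeR), and without that library it was -0.06. The heavy chain genes are related in sequence, and how kallisto divided the reads they may share was not tested, so their separate values are uncertain.

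B2M was measured at 32.9, 38.2 and 36.7 CPM without and 38.5, 47.2 and 38.2 CPM with doxycycline. The groups met at 38.2 CPM, the highest untreated and the lowest treated value, and the log2 fold change was 0.20 ± 0.094 (95% interval -0.01 to 0.41, adjusted p = 0.182 by edgeR). The intervals of HLA-C, HLA-B and B2M allow a rise of up to 1.24-fold, 1.43-fold and 1.33-fold and a fall to no less than 0.977, 0.988 and 0.990 of the untreated level. In B2M, 93.4% of the estimated counts fell on ENST00000561424 and ENST00000349264, which the annotation types as nonsense-mediated decay transcripts, and 2.01% on protein-coding ones. With protein-coding transcripts alone the log2 fold change of B2M was -0.68 (adjusted p = 0.651 by edgeR), the opposite sign. In HLA-C, HLA-B and HLA-E the share on protein-coding transcripts was 95.4%, 90.3% and 94.8%.

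NLRC5, the transactivator of class I promoters, had 10, 7 and 13 estimated counts without and 14, 4 and 14 with doxycycline. That corresponded to 0.682, 0.221 and 0.302 CPM against 0.312, 0.0781 and 0.298 CPM, and the groups overlapped. Its log2 fold change of -0.61 ± 0.554 (95% interval -1.85 to 0.64, adjusted p = 0.486 by edgeR) left changes of either sign within the interval.

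Over the 6 libraries, HLA-B varied with HLA-C (Pearson's r of log2 CPM 0.895), while B2M followed neither of them (r = 0.294 with HLA-B and -0.028 with HLA-C). Of 13353 protein-coding genes compared at about 1 CPM or more, the most like B2M were HSPA8 (r = 0.992), NIPSNAP3A (0.983) and HPF1 (0.979). HDAC1 (0.996), FDX2 (0.996) and ANKRD9 (0.995) were the most like HLA-C, and WDR13 (0.998), IRX3 (0.997) and CHIC2 (0.997) the most like HLA-B. These values describe 6 libraries that share both conditions and differ in depth, and many genes reach a high r over 6 points.

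Among genes of peptide supply and loading, 13 of 16 were tested and 3 rose, none fell, and the median log2 fold change was 0.23. The called share was 23.1% beside the 17.5% of all genes. PSMB10, a catalytic subunit of the immunoproteasome, was at 8.03, 6.45 and 7.30 CPM without and 10.8, 10.9 and 9.69 CPM with doxycycline. All treated libraries lay above all untreated ones (log2 fold change 0.54 ± 0.104, adjusted p = 0.00795 by edgeR), though the call was lost with protein-coding transcripts alone (0.28, adjusted p = 0.673). CALR, a chaperone of the loading complex, rose by 0.33 ± 0.060 on the log2 scale (adjusted p = 0.0064 by edgeR) and kept its call in all 14 alternatives. PSMB5, the constitutive counterpart of PSMB8, rose by 0.28 ± 0.074 (adjusted p = 0.0305 by edgeR). Its call was lost in 4 of the 6 fits that left out 1 library, treated replicates 1 and 2 and untreated replicates 2 and 3 (adjusted p 0.0716 to 0.118), and with length-scaled counts (0.0941). PSMB8, PSMB9 and TAPBPL did not pass the filter. PSMB8 and PSMB9, the other inducible subunits of the immunoproteasome, had means of at most 0.0279 CPM in either group on the transcripts assigned to them.

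**Figure D2:**
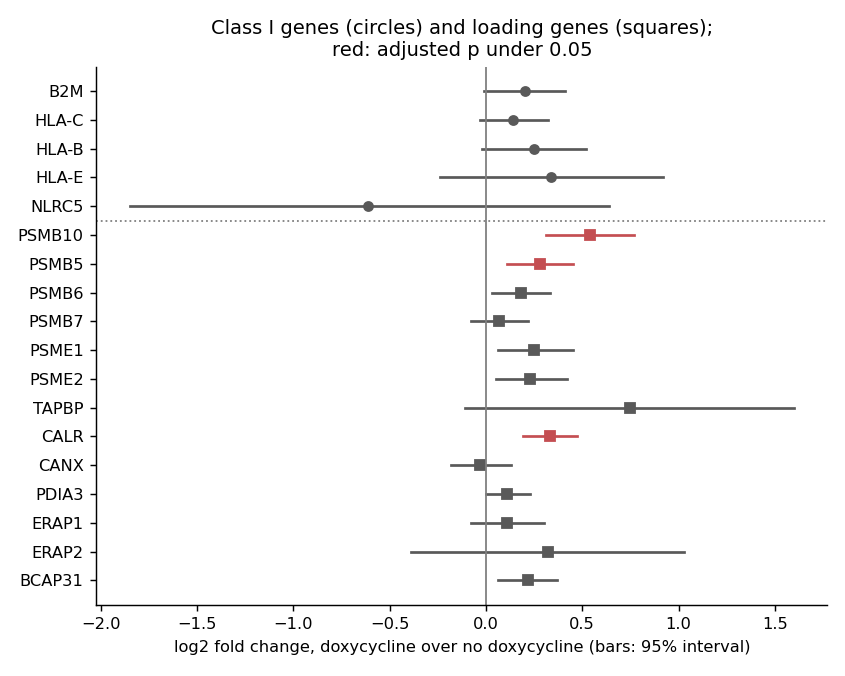
Log2 fold change with doxycycline and its 95% interval for the 5 tested class I genes (circles) and the 13 tested genes of peptide supply and loading (squares), red where the adjusted p was under 0.05. The intervals of B2M, HLA-C, HLA-B, HLA-E and NLRC5 all include 0, while those of the called PSMB10, PSMB5 and CALR, and of PSMB6, PSME1, PSME2 and BCAP31, which were not called, lie above it.

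Of the 13 genes for regulators that act on class I promoters, all were tested and only NFKB1 was called, 7.7% beside the 17.5% of all genes. NFKB1, a subunit of NF-kB, rose by 0.28 ± 0.081 on the log2 scale (adjusted p = 0.0408 by edgeR). Its call was lost with DESeq2 (adjusted p = 0.0519), with length-scaled counts (0.114) and in 5 of the 6 fits that left out 1 library (adjusted p 0.0596 to 0.146, all but treated replicate 1). The median of these genes was 0.02. RFX5, which binds the X1 box, had a log2 fold change of 0.05 and CIITA, the class II transactivator, one of -0.28 at 0.861 and 0.755 CPM, neither past the test.

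Interferon signalling genes gave 2 rises and no fall among 12 tested of 13, with a median log2 fold change of 0.16. The called share of 16.7% was near the 17.5% of all genes. IRF9, the DNA-binding part of a complex that carries the type I interferon signal, rose by 0.40 ± 0.114 (adjusted p = 0.0391 by edgeR), and IFNAR2, a receptor chain of type I interferon, rose by 0.29 ± 0.079 (adjusted p = 0.0338 by edgeR). Each call was lost in 5 of the 6 fits that left out 1 library, all but untreated replicate 1 for IRF9 (adjusted p 0.0886 to 0.151) and all but untreated replicate 3 for IFNAR2 (0.051 to 0.132). IRF9 also lost it with DESeq2 (adjusted p = 0.0669) and with protein-coding transcripts alone (0.195), and IFNAR2 with length-scaled counts (0.0915).

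Interferon-stimulated genes gave 4 rises and 1 fall among 21 tested of 23, a called share of 23.8% beside the 17.5% of all genes, with a median log2 fold change of 0.38. IFI6, a mitochondrial protein induced by type I interferon, was at 9.27, 8.04 and 9.96 CPM without and 24.7, 23.2 and 19.6 CPM with doxycycline. The groups stood well apart (log2 fold change 1.3 ± 0.112, adjusted p = 0.000104 by edgeR). ISG15, a ubiquitin-like modifier, rose by 0.69 ± 0.136 (adjusted p = 0.00867 by edgeR), and both genes kept their calls in all 14 alternatives. BST2, which tethers budding virus, rose by 0.45 ± 0.103 (adjusted p = 0.0165 by edgeR), but its call was lost without treated replicates 1 or 2 or untreated replicates 2 or 3 (adjusted p 0.0537 to 0.067). IFI44L rose by 0.86 ± 0.260 (adjusted p = 0.0492 by edgeR), and kept its call in only 2 of 13 alternatives (adjusted p 0.0482 to 0.342 over all of them). IFITM1, an antiviral membrane protein named after its values were seen, fell by 0.28 on the log2 scale (adjusted p = 0.044 by edgeR). Its call was lost without treated replicates 2 or 3 or untreated replicates 1 or 3 (adjusted p 0.0794 to 0.144), with length-scaled counts (0.062) and with protein-coding transcripts alone (0.0553).

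**Figure D3:**
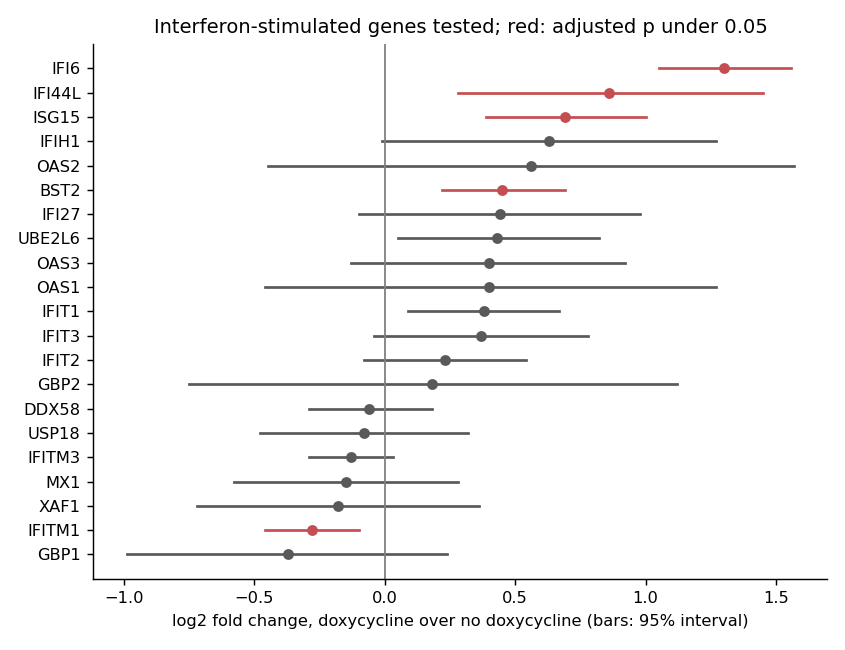
Log2 fold change with doxycycline and its 95% interval for the 21 interferon-stimulated genes tested, red where the adjusted p was under 0.05. IFI6 lies farthest to the right at 1.3, ISG15, BST2 and IFI44L are also called higher, and IFITM1 is the one called lower.

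Class II and NK ligand genes gave 1 and 2 falls and no rise in edgeR's test, with median log2 fold changes of -0.36 and 0.12. The called shares were 16.7% of the class II genes, near the 17.5% of all genes, and 40% of the NK ligand genes. Of 11 class II genes 6 were tested, and HLA-DQB1, a class II beta chain, was at 12.2, 10.9 and 11.8 CPM without and 9.64, 9.12 and 8.28 CPM with doxycycline, with no overlap (log2 fold change -0.36 ± 0.091, adjusted p = 0.0261 by edgeR). Its call was lost without treated replicates 2 or 3 or untreated replicate 3 (adjusted p 0.0682 to 0.0864) and with length-scaled counts (0.0579). HLA-DRA, the alpha chain of HLA-DR, had a mean of 0 CPM in both groups on the transcripts assigned to it. Of 8 genes for ligands of NK receptors 5 were tested and 2 fell, both encoding ligands of the activating receptor NKG2D. ULBP1 was at 27.1, 25.1 and 25.2 CPM without and 18.6, 18.5 and 18.1 CPM with doxycycline, a log2 fold change of -0.48 ± 0.064 (adjusted p = 0.00125 by edgeR) that kept its call in all 14 alternatives. ULBP3 fell by 0.38 on the log2 scale (adjusted p = 0.0405 by edgeR), with its call lost in 5 of the 6 fits that left out 1 library, all but untreated replicate 1 (adjusted p 0.0763 to 0.133), with length-scaled counts (0.0703) and with protein-coding transcripts alone (0.0524). MICB, another NKG2D ligand and named after its values were seen, was at 4.43, 7.47 and 4.90 CPM without and 9.98, 9.27 and 6.20 CPM with doxycycline, and the groups overlapped. Its log2 fold change of 0.58 ± 0.221 missed the threshold (adjusted p = 0.105 by edgeR), while DESeq2 called it higher (adjusted p = 0.0498), 1 of 6 among the 14 alternatives to do so.

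Across the whole series, depth on annotated genes was 14683468 to 43443469 estimated counts without and 44680610 to 47862394 with doxycycline, lowest in untreated replicate 1. All 7 pluripotency markers were over 1 CPM in all 6 libraries, summing to 2860 to 3090 CPM without and 2308 to 2526 CPM with doxycycline. Markers of fibroblasts, 4 of 5 over 1 CPM throughout, summed to 51.1 to 71.8 and 75.3 to 89.3 CPM, and the leukocyte markers, 5 of 6 under 1 CPM throughout, to 3.14 to 4.18 and 4.27 to 4.45 CPM. All 6 trophoblast and 4 endoderm or yolk sac markers stayed under 1 CPM, with AFP under 0.1. The pluripotency, fibroblast and leukocyte sums did not overlap between conditions, and their part in the results was not tested.

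Of the 429 genes annotated in the chr6 HLA region, 97 were tested and 11 were called, 6 higher and 5 lower. That is 11.3% beside 17.5% of all genes, with a median log2 fold change of 0.12. The largest falls were in genes whose mean was below 1 CPM, named after their values were seen. MLN, which encodes the gut hormone motilin, had 25, 32 and 37 estimated counts without and 3, 1 and 4 with doxycycline (log2 fold change -4.22 ± 0.466, adjusted p = 0.000448 by edgeR). LY6G5C had 11, 22 and 30 estimated counts without and 9, 6 and 6 with doxycycline (log2 fold change -2.21 ± 0.312, adjusted p = 0.00177 by edgeR). Both kept their calls in every alternative in which they were tested, 13 for MLN and 12 for LY6G5C, and a pseudogene, not named here, had the largest rise (log2 fold change 1.84, adjusted p = 1.31e-05 by edgeR). Among genes at higher levels, LSM2, part of a ring that binds U6 snRNA, was at 2.81, 6.76 and 8.33 CPM without and 22.5, 20.6 and 8.32 CPM with doxycycline. The third treated library lay within the untreated range, the log2 fold change was 1.43 ± 0.392 (adjusted p = 0.0354 by edgeR), and the call was lost with DESeq2 (0.0604), with the replicate block (0.0579) and in 5 of the 6 fits that left out 1 library, all but treated replicate 3 (0.0564 to 0.123). EGFL8, a secreted protein with EGF-like repeats, fell from 3.31, 2.22 and 3.30 CPM to 1.00, 2.09 and 1.22 CPM (log2 fold change -1.02 ± 0.283, adjusted p = 0.0364 by edgeR). Its call was lost without treated replicates 1 or 3 or untreated replicates 1 or 3 (adjusted p 0.0621 to 0.134) and with protein-coding transcripts alone (0.474).

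DXO, which removes faulty mRNA caps, rose from 2.80, 6.04 and 5.96 CPM to 10.1, 10.2 and 7.20 CPM, with no overlap (log2 fold change 0.82 ± 0.234, adjusted p = 0.0406 by edgeR). Its call was lost without treated replicates 1 or 2 or untreated replicates 2 or 3 (adjusted p 0.0642 to 0.14), with length-scaled counts (0.0594) and with protein-coding transcripts alone (0.156). LEMD2, an inner nuclear membrane protein, fell from 100.0, 84.7 and 82.1 CPM to 68.2, 64.0 and 65.9 CPM, and its call held in all 14 alternatives (log2 fold change -0.43 ± 0.077, adjusted p = 0.00605 by edgeR). HLA-DQB1, above, was the fifth gene named by the rule. Genes of the region were measured less precisely than others, with a median SE of 0.199 against 0.089 for all genes tested. Among genes over 1 CPM the medians were 0.145 and 0.080. Of the 97, 74.2% had a transcript whose length and estimated counts in all 6 libraries matched those of a transcript without a gene in the annotation, against 3.93% of all genes tested. Among the class I genes such matches concerned B2M, TAP1 and HLA-E. Adding them to their genes gave 15 genes called in the region, and 0 of the 9 class I genes called.

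The SVAs of the region belonged to all 6 subfamilies, with 2 of A, 3 of B, 2 of C, 8 of D, 3 of E and 4 of F, and lay in 16 loci once those within 500 bp were joined. Their GC content ran from 48.7% to 84.7%. Nearest to a class I gene was SVA_E_r101, whose end lay 2498 bp before the start of HLA-F, with SVA_E_r99 and SVA_E_r100 in the same locus. SVA_B_r168 and SVA_D_r491 lay 8651 and 13510 bp from the start of HLA-E. For HLA-G the nearest was 68420 bp away, for HLA-C 204074 bp, for HLA-B 299011 bp, for TAP1 205130 bp and for TAP2 220207 bp. Of the genes whose start was nearest to an SVA of the region, 4 of 14 were tested, namely HLA-E, NEU1, DXO and HLA-DRB1. DXO, 3366 bp from SVA_D_r496, was the 1 of these 4 called, beside 17.5% of all genes tested. It was called higher. Neither SVA_D_r496 nor its neighbour SVA_D_r497 had a peak in any H3K9me3 library, but peaks were scarce over the whole region, as described below. A link between these SVAs and the level of DXO was not tested. NEU1, a lysosomal sialidase, had a log2 fold change of 0.18 ± 0.101 (adjusted p = 0.253 by edgeR) and HLA-DRB1, a class II beta chain, one of 0.52 ± 0.288 (0.247).

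H3K9me3 peaks were rare on the SVAs of the region. No SVA of the 22 had one in the parental library, 1 had one in the first untreated library and 0 in the second, and 2 had one in the first treated library and 0 in the second. A count of 0 of 22 allows a share of up to 13.6% by the limit of 3 counts used here, while the Wilson interval of the same count ends at 14.9%, and both cover counting error only. In the same libraries the 613 other de-repressed SVAs had a peak in 2.45% (parental), 35.2% and 8.48% (untreated) and 58.6% and 46.8% (treated). For the second treated library the 95% Wilson interval was 0 to 14.9% in the region and 42.9% to 50.8% elsewhere. In the first treated library it was 2.53% to 27.8% and 54.6% to 62.4%.

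The treated peaks lay on SVA_F_r352 (fold enrichment 4.34) and SVA_F_r353 (4.82), which are neighbours in 1 of the 16 loci and so are not independent, and the untreated one on SVA_C_r103 (3.82). No SVA of the region had a peak in both treated and neither untreated library, while with the first replicates alone 2 had gained one. The difference of 0.5 SVAs between conditions gave p = 1.0 in an exact permutation test over 2 against 2 libraries, whose smallest possible p is 0.33. The SVAs nearest to HLA-F, HLA-E, HLA-G and the other class I genes of chromosome 6, except SVA_C_r103, had no peak in any of the 5 H3K9me3 libraries. YY1 and OCT4 peaks were found on 0 of the 22 in each of the 4 and 2 libraries, against 9.79% to 15% of the other SVAs for YY1 and 9.30% and 0.489% for OCT4.

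**Figure D4:**
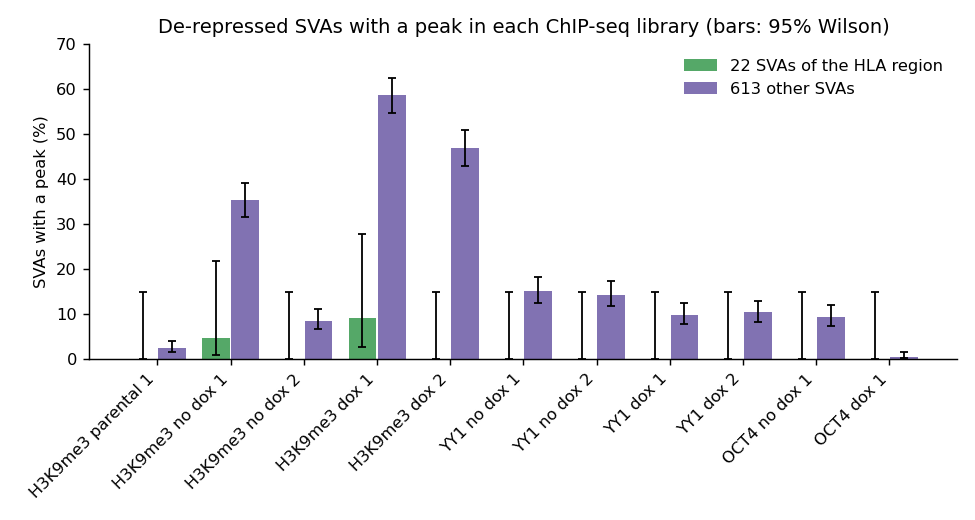
Share of de-repressed SVAs with a peak in each of the 11 ChIP-seq libraries, for the 22 of the HLA region and the 613 others on assembled chromosomes, with 95% Wilson intervals. In the H3K9me3 libraries with doxycycline the region is at 9.09% and 0% and the others at 58.6% and 46.8%.

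The scarcity was not limited to SVAs. H3K9me3 peaks numbered 4.7 to 6.0 per Mb in the region, 33.1 to 45.4 per Mb in the next 5 Mb on each side and 39.5 to 58.4 per Mb over the assembled genome. For YY1 the values were 2.3 to 3.9, 33.5 to 59.3 and 18.1 to 37.3 per Mb, and within the span of the 7 class I genes 0 to 0.6 per Mb. For OCT4 the region held 2.7 per Mb without and 0.6 per Mb with doxycycline, beside 16.3 and 7.5 per Mb genome-wide. The authors' peak lists also held 0 to 11 peaks on the alternate contigs of chromosome 6, so their reference included these copies, and the authors kept only reads above a mapping quality minimum. The part of this in the low peak density was not tested, and a missing peak in the region is not taken here as an unmarked SVA. On the alternate contigs 0 to 4 of the 103 SVAs had an H3K9me3 peak.

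**Figure D5:**
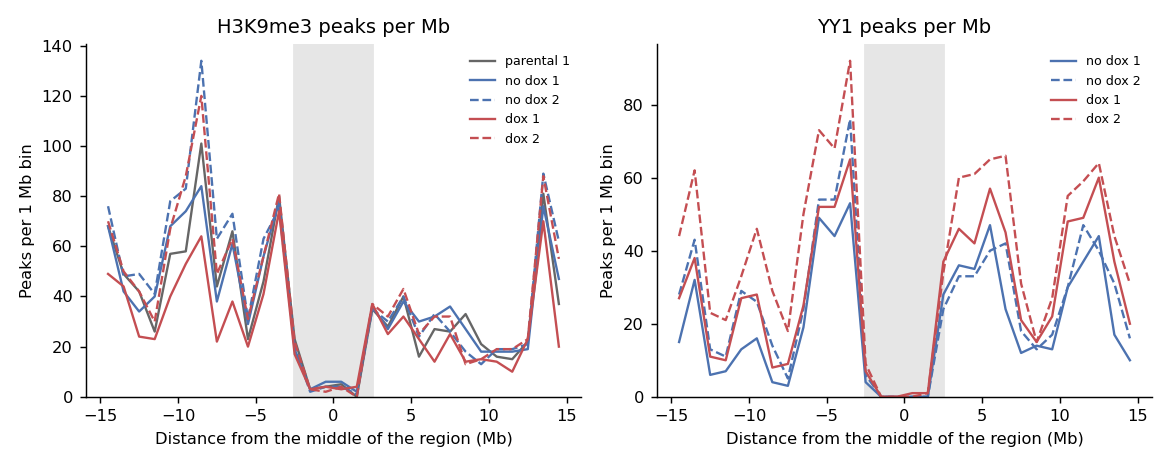
Peaks per 1 Mb bin of chromosome 6 by distance from the middle of the HLA region (grey band) for H3K9me3 (left) and YY1 (right), 1 line per library. All libraries drop within the band, to 4.7 to 6.0 H3K9me3 and 2.3 to 3.9 YY1 peaks per Mb over the region.

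Over the region H3K9me3 peaks numbered 31 and 28 without and 30 and 27 with doxycycline (exact permutation p = 0.67), and 24 in the parental library. They covered 36.0 and 22.5 kb without and 33.5 and 28.2 kb with doxycycline (exact permutation p = 1.0), and the groups overlapped in both measures.

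At the promoters, a peak was counted within 2 kb of the annotated gene start. None of the 7 class I genes on chromosome 6 had a peak of H3K9me3, YY1 or OCT4 there in any of the 11 libraries. Peaks were scarce over the whole span of these genes, with 0 to 0.6 per Mb for YY1. A missing peak is therefore not taken here as an unmarked or unbound promoter. B2M, whose promoter is printed above, had YY1 peaks in all 4 YY1 libraries, with the highest fold enrichment at 4.56 and 4.69 without and 5.47 and 6.53 with doxycycline. The treated values were the higher ones, and no test was run on enrichments, which are set against each library's own background. The summits of these peaks lay at -963 and 1604 bp from the start without and at 1588 and -902 bp with doxycycline. NLRC5 had a YY1 peak within 5 kb in the second untreated and the second treated library. Within 2 kb it had one in the second treated library only (fold enrichment 6.79), with a summit outside the window, 2186 bp from the start. The number of class I genes with a YY1 peak was thus 1 and 1 without and 1 and 2 with doxycycline (exact permutation p = 1.0), and with H3K9me3 it was 0 in all 5 libraries. When any annotated transcript start was allowed, H3K9me3 peaks were counted at B2M in the first untreated and the first treated library and at NLRC5 in the parental, both untreated and the first treated library, and further YY1 peaks at HLA-B in the first treated and at NLRC5 in the second untreated library.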

How the data were processed

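RNA was measured in 6 libraries and chromatin in 11, grouped by their labels. The dose, time and cell construction come from the study's methods. Separate cultures are not stated for the replicates, so p-values may measure technical spread. The genes and lists were chosen with earlier results of these data known.

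For RNA-seq, the deposited tables hold, for each transcript, TPM and the estimated counts the authors obtained with kallisto. Transcripts were assigned to genes through GENCODE v44lift37, where 88.2% of 188753 had a match, and the rounded gene sums entered the quasi-likelihood test of edgeR 4.0.16 (R 4.3.3) after filterByExpr and TMM scaling. Benjamini-Hochberg adjustment ran over all genes tested, with a threshold of 0.05. CPM uses TMM library sizes. The SE of a log2 fold change was derived from that change and the F statistic of edgeR's test. On simulated data of 16371 genes, the test recovered 91.5% of 200 genes given a log2 change of 1. There were 20 false calls among 203, a share above the threshold of 0.05. The 200 genes were drawn from those with a mean above 1 CPM. Smaller changes, such as those of the class I genes, and changes in genes as low as NLRC5 were not simulated. Counts of libraries of 1 condition differed by more than counting noise.

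For ChIP-seq, the authors aligned to hg19 with BWA MEM, filtered on mapping quality, removed duplicates and called peaks per library. The deposited lists give fold enrichment as a ratio and p- and q-values as −log10, and no depth. An SVA carried a peak at 1 shared base. Replicate numbers of ChIP-seq libraries without a numbered label were set to 1.

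Named genes were the 9 class I genes, up to 4 called genes of each list with the largest change, the 5 called genes of the region with the largest change and a mean of at least 1 CPM that are no pseudogenes, genes nearest to its SVAs if tested, and the 3 genes most like B2M, HLA-C and HLA-B. MLN, LY6G5C, IFITM1 and MICB were added after their values were seen. Other class I genes and the sequences of the SVAs are not reported here. The alternatives were DESeq2 1.42.0, its size factors, no filter, at least 10 counts in every library, a replicate block, length-scaled counts, protein-coding transcripts alone, 1 library left out in turn and, chosen after seeing the data, matching unassigned transcripts added and any annotated transcript start. Peak results were repeated with q-values of at least 5 on the −log10 scale, with peaks over 50% of an SVA, with 500 bp added to each SVA, a region of 100 kb beyond the genes, a promoter window of 5 kb and 1 replicate left out. A table of YY1 HiChIP contacts with 12 per-sample columns was not used, as its columns could not be assigned to conditions. Peaks and sequences were handled in Python with pandas and pysam. Gene symbols older than the annotation were matched through RefSeq synonyms.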

Additional observations from a re-analysis of the deposited data

How the results depend on the processing

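None of the 9 class I genes was called in any of the 14 RNA alternatives, of which NLRC5 could be tested in 12. The log2 fold change reversed for HLA-E without doxycycline replicate 1 (-0.06, with a range of -0.06 to 0.52 when each library was left out) and for B2M with protein-coding transcripts alone (-0.68). The count over all genes was 2858 in the fit reported, 1901 with length-scaled counts and 1396 to 3259 with 1 library left out. In the chr6 HLA region the count was 11, and 17 with no filter, 18 with the replicate block, 7 with protein-coding transcripts alone and 5 (without doxycycline replicate 2) to 15 (without no doxycycline replicate 1) with 1 library left out. The cause was not tested. Of 20 other named genes called, 7 kept their call in every alternative run. Whether replicate numbers pair the libraries was not settled. Same-numbered libraries correlated at 0.128, 0.08 and -0.001 in their deviations from the group means, and differently numbered ones at -0.127 to 0.06. The replicate block called 3316 genes in all. H3K9me3 peaks of the region differed by 3.5 between conditions at a −log10 q of at least 5 in place of -1.0, and class I genes with an H3K9me3 peak by -0.5 at any annotated transcript start. Without replicate 2, 2 SVAs of the region gained H3K9me3, and 0 without replicate 1. The difference in SVAs with an H3K9me3 peak ran from 0 to 1.0 with 1 replicate left out, that in class I genes with a YY1 peak from 0 to 1.0, and that in kb under H3K9me3 peaks from -2.5 to 5.7. Genes of alternate contigs could not be named, so the alternative that adds their copies was run only through matching transcripts. Low counts limit TAP1, TAP2, HLA-F, HLA-G and NLRC5, and 22 SVAs limit the peak shares. The parts of depth and of reads on unassigned transcripts in these low counts were not tested.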
